A study of Mus musculus with 16 samples.

Results

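The genes described here encode the proteins of the mitochondrial ribosome in the mouse heart. They were taken as all probes of the array's deposited value table whose gene symbol begins with Mrpl or Mrps and a digit, with 1 probe per gene, the one with the highest mean over all 16 arrays. This gave 76 of the 16593 genes on the array, 47 named for the large subunit and 29 for the small subunit, covered by 110 probes. The rule used no difference between groups. Of the 76 genes, 71 passed the background filter and were tested, 43 of the large and 28 of the small subunit. The other 5 (Mrpl19, Mrpl21, Mrpl32, Mrpl45 and Mrps36) were above background on too few arrays, and 4 of these, all but Mrpl45, on none. Symbols do not track the subunit in every case: the proteins of Mrps18a and Mrps30 are known to lie in the large subunit, and Mrps36 is known as a part of the 2-oxoglutarate dehydrogenase complex. All were counted by symbol.

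RNA of the left ventricle of male C57BL6 mice, 12 weeks old at the start, was hybridised to 16 Illumina arrays, 4 per group. A control group stood beside mice on L-NAME, which inhibits nitric oxide synthases and raises blood pressure, at 0.3 mg/ml in the drinking water together with 1% NaCl for 5 weeks. A second group received AngII (angiotensin II, a vasoconstrictor hormone) at 0.7 mg/kg/day from implanted osmotic pumps for 4 weeks, and the combination group received both, a treatment the study used to bring about heart failure. All 4 groups were of the same strain and sex, and no group carries an engineered allele in the labels. Salt is stated for L-NAME and not for the control or AngII group, so a part of salt in the L-NAME and combination groups cannot be told apart from that of the inhibitor. Samples carry the numbers 1 to 4 within each group, and whether every number is another mouse is not stated. The p-values therefore measure the spread between arrays, which may be technical in part.

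Mitochondria carry their own ribosome, which translates the few messages of mitochondrial DNA, all of them for subunits of the respiratory chain and ATP synthase. Its RNAs come from mitochondrial DNA, whereas its proteins are encoded in the nucleus, made in the cytosol and imported, so that each ribosome needs products of both genomes. The small subunit reads the message and the large subunit forms the peptide bonds and is anchored at the inner membrane, where the new proteins are inserted. Some of its proteins descend from those of the bacterial ancestor and others were added in the mitochondrial lineage. The heart depends on oxidative phosphorylation for contraction.

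Promoter sequences of 67 of the 76 genes were matched in RefSeq on build GRCm38.p6, as windows from 250 bases before to 50 bases after the annotated start. Motifs known from nuclear genes for mitochondrial proteins were searched on both strands: CCGGAAG for the ETS family, to which Gabpa (also called nuclear respiratory factor 2) belongs, GCATGCG for Nrf1 and AAGATGG for Yy1. The promoters of 4 genes on which the results below turn are shown, with every match in capitals. Mrpl52 and Mrps15 had the lowest differences between combination and control of their subunits, Mrps21 also passed the test, and Mrps18b had the highest difference of all. The windows are chr14:54426659-54426958 on the plus strand for Mrpl52, chr4:126046678-126046977 on the plus strand for Mrps15, chr3:95871465-95871764 on the minus strand for Mrps21 and chr17:35916391-35916690 on the minus strand for Mrps18b.
Mrpl52: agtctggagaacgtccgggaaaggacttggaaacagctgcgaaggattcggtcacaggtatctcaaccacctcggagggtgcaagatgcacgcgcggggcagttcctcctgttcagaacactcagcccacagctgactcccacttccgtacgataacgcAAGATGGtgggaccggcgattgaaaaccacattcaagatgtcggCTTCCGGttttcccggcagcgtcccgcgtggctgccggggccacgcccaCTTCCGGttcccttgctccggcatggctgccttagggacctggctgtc
Mrps15: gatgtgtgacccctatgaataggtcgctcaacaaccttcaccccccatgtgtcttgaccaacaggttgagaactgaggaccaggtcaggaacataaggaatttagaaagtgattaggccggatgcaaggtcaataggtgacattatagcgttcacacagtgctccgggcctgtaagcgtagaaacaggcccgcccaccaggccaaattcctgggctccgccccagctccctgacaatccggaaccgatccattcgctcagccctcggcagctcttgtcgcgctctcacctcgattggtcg
Mrps21: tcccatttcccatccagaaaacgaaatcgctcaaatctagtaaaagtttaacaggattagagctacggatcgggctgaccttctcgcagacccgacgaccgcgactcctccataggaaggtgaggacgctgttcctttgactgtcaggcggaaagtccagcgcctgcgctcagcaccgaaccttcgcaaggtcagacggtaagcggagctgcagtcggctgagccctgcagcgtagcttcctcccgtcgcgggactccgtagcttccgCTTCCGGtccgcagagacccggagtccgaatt
Mrps18b: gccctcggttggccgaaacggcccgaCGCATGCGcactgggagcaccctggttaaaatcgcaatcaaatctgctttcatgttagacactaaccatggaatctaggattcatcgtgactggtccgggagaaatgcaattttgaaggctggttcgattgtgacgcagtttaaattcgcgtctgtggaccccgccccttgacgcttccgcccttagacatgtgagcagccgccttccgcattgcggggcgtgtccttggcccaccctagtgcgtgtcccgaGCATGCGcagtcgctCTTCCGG
The Mrpl52 window held 2 ETS matches and 1 Yy1 match, that of Mrps21 held 1 ETS match, and that of Mrps18b held 1 ETS match and 3 Nrf1 matches, of which 2 overlap on opposite strands. None of these letters was found in the Mrps15 window, nor in that of Mrpl14 (not shown), which also passed the test. Their absence says nothing about the factors themselves. No window was matched for Mrps28 and Mrps35, the other genes that passed.

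The ETS letters occurred in 25 of the 67 promoters (37.3%), in 17.5% of the 7422 promoters of tested genes and in 9.12% of all 27025 promoters of the table. Yy1 letters were found in 13 promoters (19.4%, against 7.61% of tested genes and 6.48% of all), and the Nrf1 letters in 8 (11.9%, against 6.36% and 3.64%). A longer palindromic Nrf1 form, which contains these letters, was in 3 promoters (4.48%, against 1.95% of tested genes). At least 1 of the motifs was present in 37 promoters (55.2%, against 28.2% of tested genes). The median GC content was 58.3% for these genes and 60.3% for tested genes. Of the 67 genes, 25 (37.3%) had another gene starting within 1000 bases on the opposite strand, against 18.9% of tested genes. One such pair joins both subunits: Mrpl46 and Mrps11 start 42 bases apart, and neither passed the test (log2 differences between combination and control of -0.20 and -0.33). A second Mrps11 probe gave -0.12. Mrpl14 starts 131 bases from Tmem63b, which encodes a mechanosensitive channel, and both fell in the combination group (-0.53 for each, adjusted p = 0.0397 and 0.0315). Tmem63b was the only one of 14 tested neighbours to pass, where 5.80% of all genes passed in either direction. In some pairs, among them Mrpl18 with Tcp1 and Mrpl2 with Klc4, the signs differed. Whether paired genes shared a shift was not tested.

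Values are log2 intensities that the authors had quantile normalised, so levels are compared between groups for one probe and never between probes. Among the tested genes, 69 were above background on all 16 arrays, and only Mrps14 and Mrpl15 lay below it on some. The mean level over all arrays ran from 6.74 (Mrps14) to 14.3 (Mrps24). The SD within groups had a median of 0.147 over these genes and 0.262 over all 9111 genes tested. It was lowest for Mrps12 (0.0662), of the decoding site, and highest for Mrps14 (0.468).

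The arrays showed heart muscle: all 7 cardiomyocyte markers measured were above background on every array. The log2 of their summed intensities was at least 16.83 in controls and at least 16.75 in the combination, with overlapping ranges. One of these markers, the troponin gene Tnni3, fell in the combination (-0.50, adjusted p = 0.0221). Smooth muscle markers, summed in the same way, were higher in the combination (13.56 to 14.12) than in controls (12.70 to 13.30), also in the AngII group (13.53 to 13.92), with 1 of 4, Acta2, past the test (0.88, adjusted p = 0.0044), and 2 of the 4 above background on all arrays. Such a sum follows its brightest probe, here Acta2 (mean level 13.43, the next being Myh11 at 8.99), so it does not show a rise of the marker set. The 4 macrophage markers, all above background on every array, had a summed level of 11.91 to 12.18 with L-NAME and 12.20 to 12.52 in controls, and none passed in the combination. The part of these shifts in the results below was not tested. The 3 atrial markers had their highest means on combination arrays 1, 2, 3 and 4 (9.17, 8.12, 10.55 and 7.81) and on control array 4 (9.78), with 7.73 the highest among the remaining arrays, and with them as a covariate the median of the mitochondrial ribosomal genes between combination and control was -0.14 and 4 of them passed the test in place of 6 (4.82% of all genes in either direction), with Mrpl14 and Mrps35 no longer called. Of the atrial markers, Myl4 was above background on all 16 arrays, Sln on 6 and Myl7 on 4. None of them passed in the combination (limma adjusted p from 0.246 to 0.607). Adipocyte markers (3) and the skeletal muscle markers other than Ckm (3) were above background on at most 2 arrays each. In such bulk RNA, fewer cells of a type and less RNA per cell cannot be told apart.

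Taken array by array, both subunits were lower in every treated group than in controls. The mean difference of the 43 large subunit genes from their control means ran from -0.03 to 0.05 on the 4 control arrays. It was -0.19, -0.10, -0.22 and -0.16 on the L-NAME arrays, -0.19, -0.11, -0.18 and -0.21 on the AngII arrays and -0.23, -0.08, -0.23 and -0.10 on the combination arrays. All 12 treated arrays thus lay below all 4 control arrays for the large subunit, and the 3 treated groups overlapped each other throughout.

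For the 28 small subunit genes the same mean was -0.02 to 0.03 on control arrays, -0.04 to -0.09 on L-NAME arrays and -0.05 to -0.14 on AngII arrays. On the combination arrays it was -0.14, -0.09, -0.18 and 0.00. Array 4 of the combination therefore lay within the control range, and the other 11 treated arrays lay below it. Over all genes tested the mean stayed between -0.03 and 0.02 on all 16 arrays. Quantile normalisation gives every array the same distribution of values and so holds this mean near 0. A shift of all genes together could not have shown, and the lower subunit means are relative to the other genes. Since the same control arrays enter every one of these differences, the 3 treated groups are not independent of each other.

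**Figure D1:**
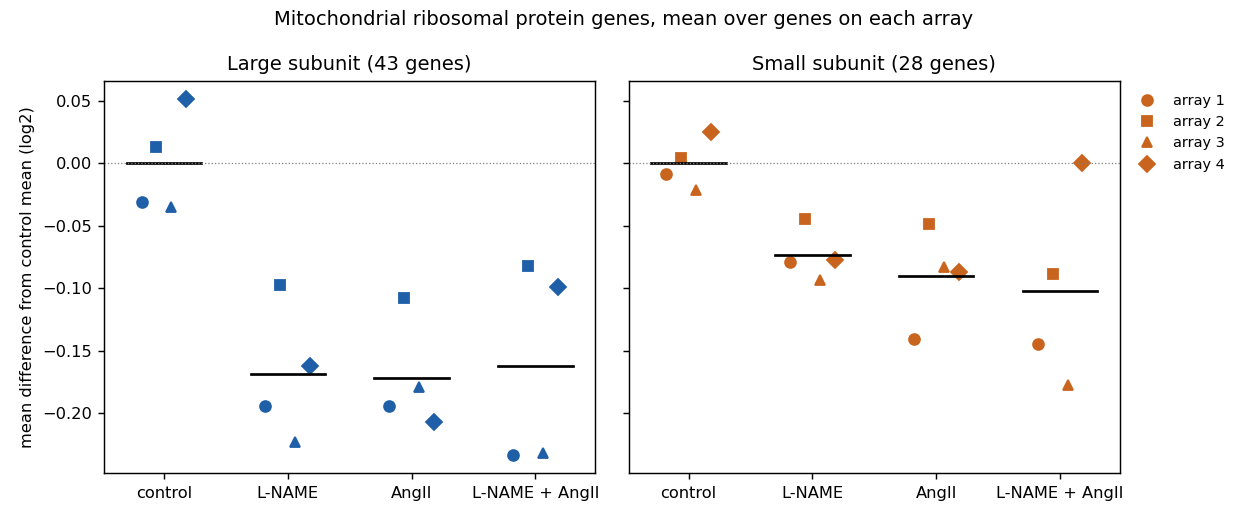
Mean log2 difference from the control mean over the 43 large subunit genes (left) and the 28 small subunit genes (right) on each of the 16 arrays; marker shapes give the array number and black bars the group means. All treated arrays lie below the controls except combination array 4 for the small subunit, at 0.00.

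Differences between samples with the same number restate these array values and are no further support. The median deviation of the 71 genes from their control means was at most -0.076 on every treated array and at least -0.032 on every control array. Nearly any pairing would therefore give a negative sign, and the pairs use the same 4 control arrays. Subtracting control array 1 from treated array 1, and so on, gave a negative median over the 71 genes in all 12 such pairs, from -0.09 (L-NAME array 2) to -0.21 (AngII array 4), with 45 to 57 of 71 genes negative. Within arrays 1 and 2 alone the median was -0.12, -0.13 and -0.14 for L-NAME, AngII and the combination, and within arrays 3 and 4 it was -0.14, -0.14 and -0.13.

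In the combination compared with control, 6 of the 71 genes fell and 0 rose, at a Benjamini-Hochberg adjusted p under 0.05 over all genes from a limma fit. Of all 9111 genes, 5.80% passed in either direction, 2.84% fell and 2.95% rose. The 6 were Mrpl14 and Mrpl52 of the large subunit and Mrps15, Mrps21, Mrps28 and Mrps35 of the small subunit. With the replicate number as a block 7 fell, these 6 and Mrpl18, where 8.64% of all genes passed in either direction. Differences were negative for 54 of 71 genes, against 50.8% of all genes, with a median of -0.16 against -0.0048. By subunit, 35 of 43 large subunit genes were negative (median -0.20) and 19 of 28 small subunit genes (median -0.10).

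Mrps15 encodes a small subunit protein whose bacterial relative in Escherichia coli binds the ribosomal RNA early in assembly. Its log2 levels were 11.41, 11.28, 11.22 and 11.10 in controls, 10.92, 10.66, 10.67 and 10.73 with L-NAME, 10.96, 10.69, 10.69 and 10.73 with AngII and 10.27, 10.32, 10.41 and 10.59 in the combination. The groups formed 3 steps that did not overlap, with controls highest, both single treatments at a like level in the middle and the combination lowest. From 11.25 ± 0.13 (SD, n = 4) in controls it fell by 0.86 ± 0.11 (SE) to 10.40 ± 0.14 in the combination (limma adjusted p = 0.000554), which is 0.552 times the control level on this scale. The steps between the combination and each single treatment did not pass (-0.37, adjusted p = 0.120 against AngII, and -0.35, adjusted p = 0.121 against L-NAME).

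Mrpl52 belongs to the large subunit and has no counterpart in the bacterial ribosome. Levels were 12.26, 12.14, 12.14 and 12.22 in controls, 11.72, 11.71, 11.48 and 11.56 with L-NAME, 11.50, 11.36, 11.29 and 11.97 with AngII and 11.46, 11.60, 11.55 and 11.56 in the combination. Every treated array was below every control array, and the treated groups overlapped, with AngII array 4 the highest of them. The fall in the combination was 0.65 ± 0.13 (SE), from 12.19 ± 0.06 to 11.54 ± 0.06 (SD, n = 4, limma adjusted p = 0.0099).

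Mrps28, of the small subunit, had levels of 12.30, 12.20, 12.29 and 12.42 in controls and 11.74, 11.88, 11.79 and 11.71 in the combination. L-NAME arrays (11.92 to 12.06) and AngII arrays (11.78 to 11.92) lay between, and the combination was wholly below L-NAME but overlapped AngII. It fell by 0.52 ± 0.09 (SE) in the combination (limma adjusted p = 0.0035), with an SD within groups of 0.0728, the smallest of the 6 called genes.

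Mrps21, related to a bacterial protein of the same number, had levels of 13.34, 13.36, 13.21 and 13.49 in controls and 12.85, 13.12, 12.78 and 12.93 in the combination. Both single treatments (12.83 to 13.12) overlapped the combination, and all 12 treated arrays lay below controls. Its fall in the combination was 0.43 ± 0.10 (SE, limma adjusted p = 0.0249). Mrps35, a protein of the small subunit without a bacterial counterpart, went from 12.46, 12.55, 12.47 and 12.52 in controls to 11.95, 12.13, 11.96 and 12.30 in the combination. It fell by 0.42 ± 0.10 (SE, limma adjusted p = 0.0273), and its L-NAME and AngII arrays (12.13 to 12.45) lay below controls and overlapped the combination.

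Mrpl14 is the large subunit protein to which the assembly factor MALSU1 binds in human mitochondria. Levels were 12.34, 12.37, 12.55 and 12.49 in controls and 11.72, 12.08, 11.54 and 12.28 in the combination, whose arrays spread widely but stayed below controls. It fell by 0.53 ± 0.14 (SE, limma adjusted p = 0.0397), and this call was the least steady of the 6: it was lost in 14 of 28 alternative settings (adjusted p from 0.0503 to 0.172), among them the fits that left out any 1 of the 4 controls or array 1 or 3 of the combination. Mrps35 was lost in 8 settings and Mrps21 in 7, in each case including the fits that left out array 1, 2 or 4 of the controls or array 1 or 3 of the combination (for Mrps35 also control array 3). Mrps28 was lost in 1, the fit of only the control and combination arrays (adjusted p = 0.0646), and Mrps15 and Mrpl52 passed in all 28. Each of the 6 genes had a single probe on the array.

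**Figure D2:**
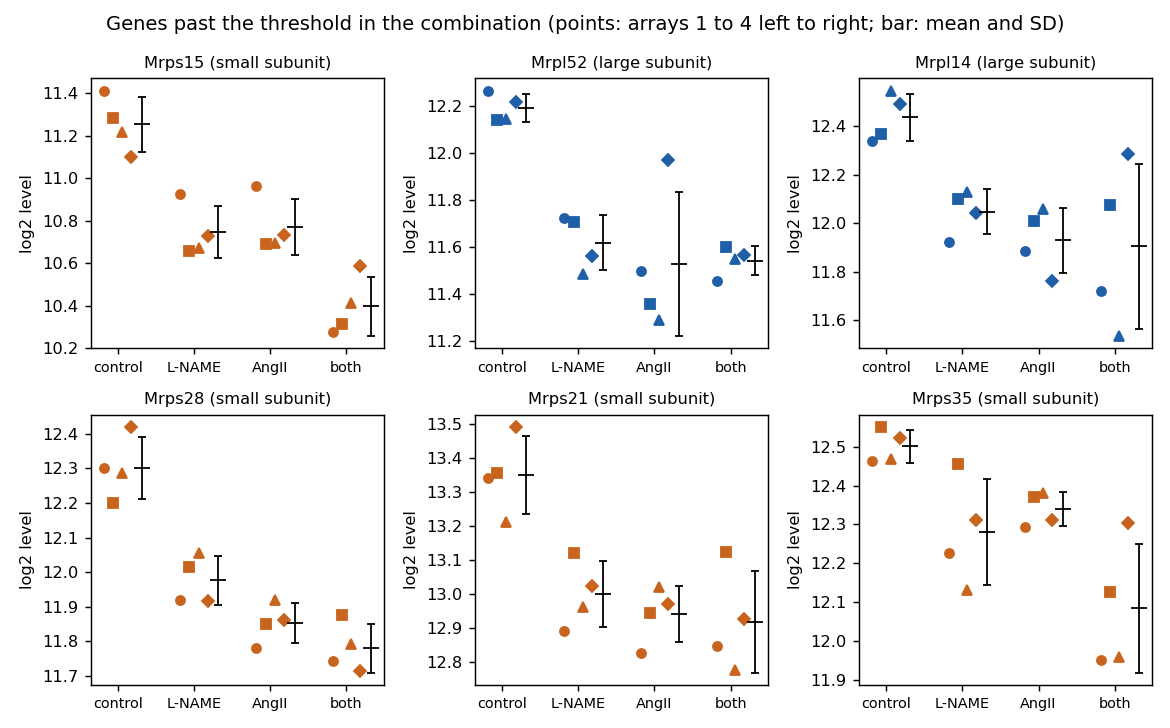
Log2 level on each array for the 6 genes past the threshold in the combination, with the group mean and SD beside the points; "both" is the combination of L-NAME and AngII, and each panel has its own axis. Controls lie above all treated arrays in every panel, and Mrps15 is the only panel in which every combination array lies below every array of both single treatments.

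Below the threshold, Mrpl39 had the third lowest difference (-0.64 ± 0.25 SE, adjusted p = 0.151). Its arrays spread more than those of the called genes: 9.98, 10.15, 10.03 and 9.51 in controls and 9.26, 9.35, 9.09 and 9.41 in the combination, which did not overlap. Mrpl18 (-0.38 ± 0.12 SE, adjusted p = 0.0902) is related to a bacterial protein that binds 5S ribosomal RNA. With the replicate number as a block it passed (adjusted p = 0.0348). The other differences below -0.30 that did not pass were those of Mrpl51 (-0.35), Mrpl34 (-0.33), Mrps11 (-0.33), Mrpl30 (-0.32) and Mrpl36 (-0.32), with adjusted p from 0.0765 to 0.237. Mrpl51 overlapped between the groups, whereas all combination arrays of Mrpl36 were below controls. Further probes gave smaller falls for Mrpl51 (-0.15 and -0.02, adjusted p = 0.818 and 0.976) and for Mrps11 (-0.12, adjusted p = 0.669). The second Mrpl18 probe gave -0.38, like the first (adjusted p = 0.464).

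Mrps24, whose protein is related to bacterial S3 at the entry of the message, had narrow groups: 14.48, 14.52, 14.44 and 14.48 in controls against 14.26, 14.23, 14.24 and 14.13 in the combination (-0.27 ± 0.08 SE, adjusted p = 0.0752). In all, 12 of 71 genes had every combination array below every control array, against 6.71% of all genes, and 1 had every array above, against 5.94%.

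That gene was Mrps18b, one of 3 mouse genes related to the bacterial small subunit protein S18. Its levels were 11.33, 11.15, 11.40 and 11.16 in controls, 11.53, 11.48, 11.77 and 11.65 with L-NAME, 11.60, 11.71, 11.49 and 11.47 with AngII and 11.77, 11.45, 11.56 and 11.72 in the combination. All 12 treated arrays were above the controls, and the difference in the combination was 0.36 ± 0.11 (SE, limma adjusted p = 0.0632). Its second probe gave 0.18 (adjusted p = 0.645), and 0.21 with AngII and -0.01 with L-NAME where the first gave 0.31 and 0.35. The other S18 relatives were at -0.003 (Mrps18a) and -0.05 (Mrps18c).

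The next highest differences were 0.30 for Mrps14, dim on this array, 0.26 for Mrpl33, 0.24 for Mrps34, 0.18 for Mrpl35 and 0.17 for Mrps2, with adjusted p from 0.161 to 0.742. Combination array 4 was the highest of its group for Mrps34 (13.17 against 12.65 to 12.89) and for Mrps2 (10.16 against 9.41 to 9.79). Mrpl20, a large subunit gene at 0.12, showed the same: 11.75, 11.93, 12.20 and 12.60 in the combination against 11.88 to 12.05 in controls.

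**Figure D3:**
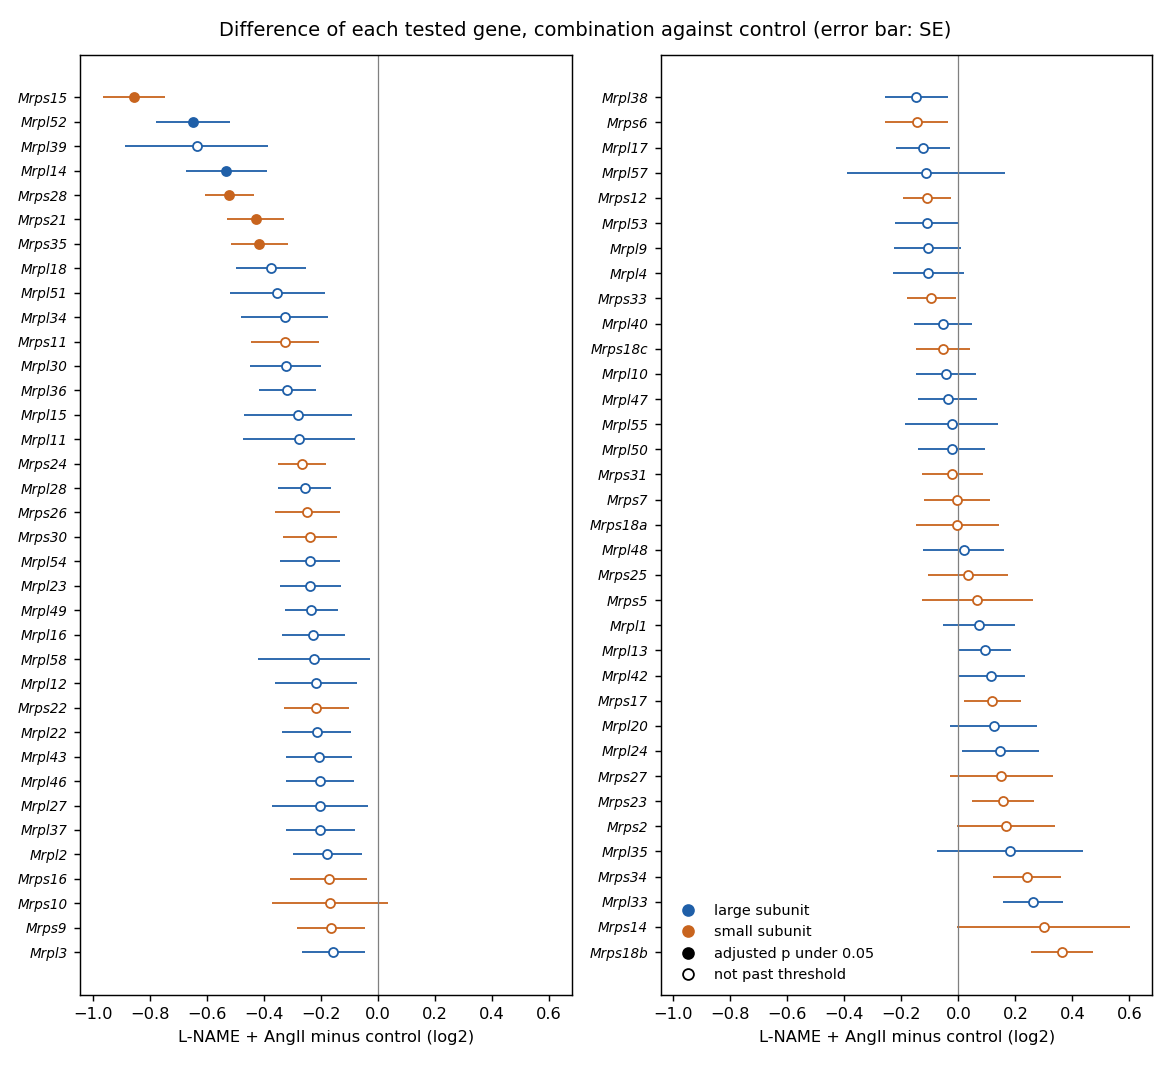
Log2 difference between combination and control for each of the 71 tested genes in rank order, with its SE; filled points have an adjusted p under 0.05. The filled points, 2 large and 4 small subunit genes, are all negative, from -0.42 to -0.86, and 54 of the 71 points lie left of 0.

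With a single treatment none of the 71 genes passed the test, and neither did any other gene (0% of 9111). The direction was nevertheless as common as in the combination. L-NAME gave a negative difference for 53 of 71 genes (47.7% of all genes), with a median of -0.14 (large subunit -0.16, small subunit -0.08, all genes 0.01). AngII gave 54 of 71 (49.1% of all genes), also with a median of -0.14 (large subunit -0.17, small subunit -0.13, all genes 0.01). At an unadjusted p under 0.05, 19 genes were lower with L-NAME (5.64% of all genes), 20 with AngII (7.34%) and 19 in the combination (11.4%), while 1 was higher with L-NAME (5.81%), 2 with AngII (7.08%) and 2 in the combination (10%). These 3 counts use the same control arrays.

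The lowest differences with L-NAME were those of Mrpl52 (-0.57 ± 0.13 SE), Mrps15 (-0.51 ± 0.11), Mrpl39 (-0.49 ± 0.25) and Mrpl15 (-0.41 ± 0.19), with adjusted p from 0.259 to 0.484. With AngII they were Mrpl52 (-0.66 ± 0.13 SE, adjusted p = 0.0549), Mrps10 (-0.59 ± 0.21, adjusted p = 0.202), Mrpl39 (-0.54 ± 0.25, adjusted p = 0.338) and Mrpl11 (-0.52 ± 0.20, adjusted p = 0.237). With the replicate number as a block, 3 genes fell with AngII, Mrpl52, Mrps10 and Mrps28 (each adjusted p = 0.0435), as did 0.615% of all genes in either direction. No gene passed with L-NAME under the block.

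Mrps10, of the head of the small subunit, was at 9.82, 10.01, 9.50 and 9.77 with AngII, against 10.38, 10.52, 10.18 and 10.38 in controls, 10.26, 10.56, 9.69 and 9.95 with L-NAME and 10.47, 10.52, 9.65 and 10.15 in the combination. Array 3 was the lowest in each of the 4 groups and array 2 the highest. A second Mrps10 probe, also above background on all 16 arrays, gave -0.38 with AngII (adjusted p = 0.229) and -0.59 with L-NAME (adjusted p = 0.257), where the first gave -0.59 and -0.25, so the lower level with AngII than with L-NAME rests on 1 of the 2 probes. Among higher differences, AngII arrays of Mrps27 were 9.07, 9.40, 9.51 and 9.77 against 8.76 to 9.21 in controls (0.42 ± 0.18 SE, adjusted p = 0.298), and Mrps5 was at 0.29 with each single treatment (adjusted p = 0.529 with AngII and 0.627 with L-NAME).

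In 8 of the 71 genes all 12 treated arrays were below all 4 control arrays, against 1.09% of all genes tested. They were the 6 called genes, Mrpl28 and Mrps24. Mrps18b alone had all 12 above, against 0.955% of all genes. By subunit this made 3 of 43 large and 5 of 28 small subunit genes below.

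**Figure D4:**
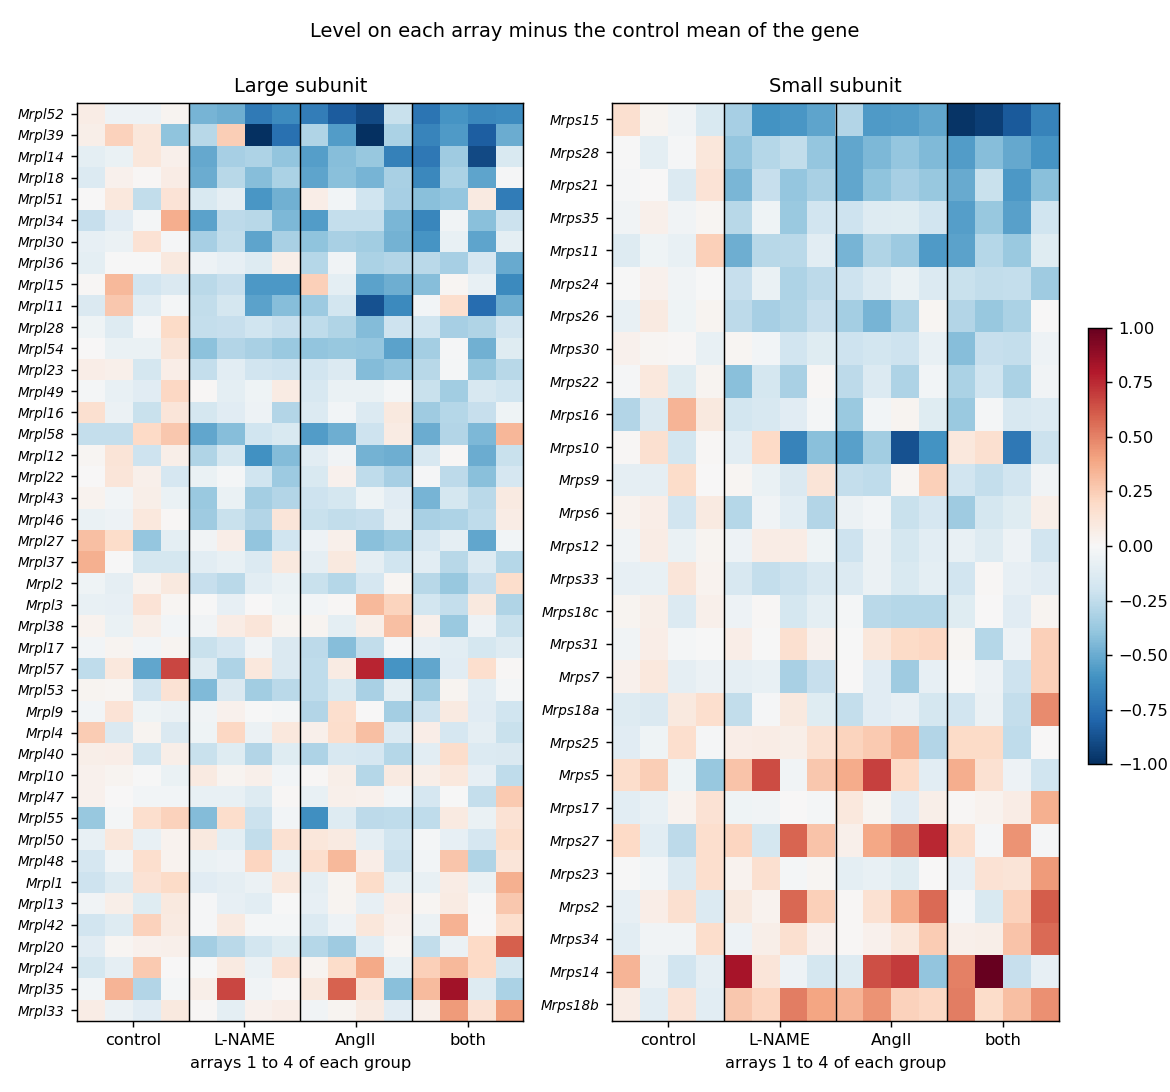
Log2 level on each array minus the control mean of the gene, for the 43 large (left) and 28 small subunit genes (right), ordered by the difference between combination and control; "both" is the combination, and colours end at 1 above and below 0. The upper rows are blue in all 3 treated groups, Mrps18b at the bottom right is red in all 3, and Mrps10 and Mrpl11 are palest on array 2 and darkest on array 3 with AngII.

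Between the combination and the single treatments, higher and lower genes were about equal in number in the fit reported, and this changed with the setting. The median between the combination and AngII was -0.0037 (35 genes higher and 36 lower, with 51.5% of all genes lower), and between the combination and L-NAME 0.0034 (36 higher and 35 lower, with 52% of all genes lower). With array weights 46 of the 71 were lower in both comparisons (medians -0.05), and with the atrial genes as a covariate 43 and 42 were higher (medians 0.04 and 0.05). With 1 array left out, 27 to 43 were lower than with AngII and 31 to 46 lower than with L-NAME, the 46 without combination array 4. No gene of the 71 passed in either, where 0.735% and 1.89% of all genes did. At an unadjusted p under 0.05, 3 were lower (8.54% of all genes) and 1 higher (6.99%) than with AngII, and 4 lower (9.63%) and 2 higher (7.06%) than with L-NAME. The lowest were Mrps15 in both, followed by Mrpl3 against AngII (-0.29 ± 0.11 SE, adjusted p = 0.228) and Mrpl36 against L-NAME (-0.27 ± 0.10 SE, adjusted p = 0.197). The highest were Mrps10 against AngII (0.42 ± 0.21 SE, adjusted p = 0.339, with 0.08 for its second probe) and Mrpl20 against L-NAME (0.35 ± 0.15 SE, adjusted p = 0.262).

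The interaction asks whether the combination differs from the sum of both single differences, and none of the 71 genes passed it (0% of all genes). It was positive for 51 of 71, where a positive value means that the combination was less far below control than the sum, against 51.7% of all genes that were negative, and its median was 0.14 against -0.01 over all genes. An unadjusted p under 0.05 was reached by 11 genes, all positive (7.23% of all genes were positive and 9.15% negative at that level), with the smallest for Mrpl54 (0.54 ± 0.15 SE, adjusted p = 0.117). Mrpl54 levels were 12.74, 12.67, 12.66 and 12.86 in controls, 12.33 to 12.44 with L-NAME, 12.19 to 12.35 with AngII, and 12.39, 12.72, 12.25 and 12.61 in the combination. Its single treatments lay wholly below controls, and combination array 2 reached the control range. Without combination array 4 the median interaction of the 71 genes was 0.087. A positive interaction was not particular to these genes. Its median was 0.29 over cytosolic ribosomal protein genes (47 of 55 positive) and 0.08 over complex I genes (22 of 33). Lists described below had negative medians: translation factors (-0.07), synthetases (-0.33), ribosome assembly (-0.25) and mitochondrial DNA transcription (-0.07). Differences between lists were not tested.

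The contrasts that share no array were also set against each other. Over the 71 genes, the L-NAME difference without AngII and that on top of AngII had a Pearson r of -0.09 and the same sign in 36 (50.7%), where all genes tested had an r of -0.11 and the same sign in 45.3%. For AngII without and with L-NAME, r was 0.03, with the same sign in 36, against 0.06 and 48.6% over all genes. These values are across genes, which share their arrays and are no replicates, and serve as a description.

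Within groups, the genes varied together only weakly. Deviations from the group means had a median pairwise correlation of 0.09 over the 903 pairs of large subunit genes, 0.06 over the 378 pairs of small subunit genes and 0.09 over the 1204 pairs across subunits. The same measure was 0.26 over cytosolic ribosomal protein genes, 0.06 over complex I genes and 0.0003 over all pairs of tested genes. All of these are computed over the same 16 arrays.

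A further 27 probes for 21 of the genes were above background. None of them passed in the combination, their median difference was -0.11, and 6 of them, for Mrpl1, Mrpl13, Mrpl49, Mrps25 and Mrps31, had the opposite sign to the chosen probe. Mrps25 was at 0.03 by the chosen probe and at -0.39 and -0.21 by the others (adjusted p from 0.281 to 0.925), so no direction can be given for it. For Mrpl49, the chosen probe gave -0.23 and the others 0.12, -0.20 and -0.31. The genes were also split by the number in the symbol, which need not give the ancestry of each protein. The 43 numbered after bacterial proteins, with Mrpl55 and Mrps24 placed among them, had a median of -0.16 with 3 falls (Mrpl14, Mrps15 and Mrps21). The 28 others had a median of -0.18 with 3 falls (Mrpl52, Mrps28 and Mrps35). Chromosome 11 holds 11 of the 76 genes, more than any other, and none of the 10 tested there passed (median -0.18).

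Other components of mitochondrial translation were followed through gene lists chosen with earlier results of these data known. Their counts stand beside 2.84% of all genes that fell, 2.95% that rose and 11.4% that were lower at an unadjusted p under 0.05 in the combination. Of the mitoribosomal proteins named outside the Mrp scheme, 3 were tested and none passed: Dap3, the GTP-binding protein of the small subunit (-0.07, adjusted p = 0.719), Ptcd3 (-0.28, adjusted p = 0.200) and Chchd1 (-0.18, adjusted p = 0.350). Among 17 genes for assembly of the ribosome and modification of its RNA, 2 fell in the combination (Mterf3, needed for biogenesis of the large subunit in mice, -0.41, adjusted p = 0.0221, and Rbfa, which matures the small subunit, -0.46, adjusted p = 0.0321), none rose, and the median was -0.18. None of 13 translation factors passed (median -0.27, 3 lower at an unadjusted p under 0.05). The elongation factor Tufm was at 0.22 (adjusted p = 0.330), its exchange factor Tsfm at -0.30 (adjusted p = 0.0856) and the release factor Mtrf1l at -0.52 (adjusted p = 0.0927). None of 13 aminoacyl-tRNA synthetase genes and their partners passed (median -0.17, 3 lower at an unadjusted p under 0.05).

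Of 14 genes for transcription of mitochondrial DNA and handling of its RNA, 1 fell: Tfam, the factor that packages mitochondrial DNA and starts its transcription (-0.57 ± 0.12 SE, adjusted p = 0.0165). The RNA polymerase gene Polrmt was at -0.17 (adjusted p = 0.581), and the list's median was -0.24. Of 7 nuclear regulators none passed, with Esrra at -0.33 (adjusted p = 0.0758), Ppargc1a at -0.24 (adjusted p = 0.244), Nrf1 at 0.13 (adjusted p = 0.580) and Gabpa at 0.11 (adjusted p = 0.733), while Yy1 was above background on no array. Of 33 complex I genes 1 fell, Ndufb2 (-0.66, adjusted p = 0.0147), with a median of -0.09. Of 55 cytosolic ribosomal protein genes 1 rose, Rps4x (0.36, adjusted p = 0.0379), with a median of -0.04.

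In the fit reported, some of the lists had their lower medians in different comparisons. Between the combination and AngII, the median of translation factors was -0.16 and that of the synthetases -0.21, with all 13 genes of each negative. Of all genes 51.5% were negative, and the genes of a list share their arrays. The medians of assembly genes and of mitochondrial DNA transcription were -0.22 and -0.23. The mitochondrial ribosomal proteins were at -0.0037 in the same comparison and the cytosolic ones at 0.12. With L-NAME and with AngII alone, the synthetases (0.02 and 0.08) and assembly genes (0.03 and 0.02) were near 0, whereas cytosolic ribosomal proteins were at -0.17 and -0.22. Translation factors were at -0.16 and -0.11, genes of mitochondrial DNA transcription at -0.06 and -0.07, and complex I genes at -0.10 and -0.08. Like the mitochondrial ribosomal proteins, complex I genes were near 0 between the combination and AngII (-0.02) or L-NAME (-0.03). No gene of these lists passed between the combination and AngII, or with either agent alone, and the differences between lists were not tested. Medians under the alternative settings were taken for the mitochondrial ribosomal genes and all genes, not for the other lists.

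**Figure D5:**
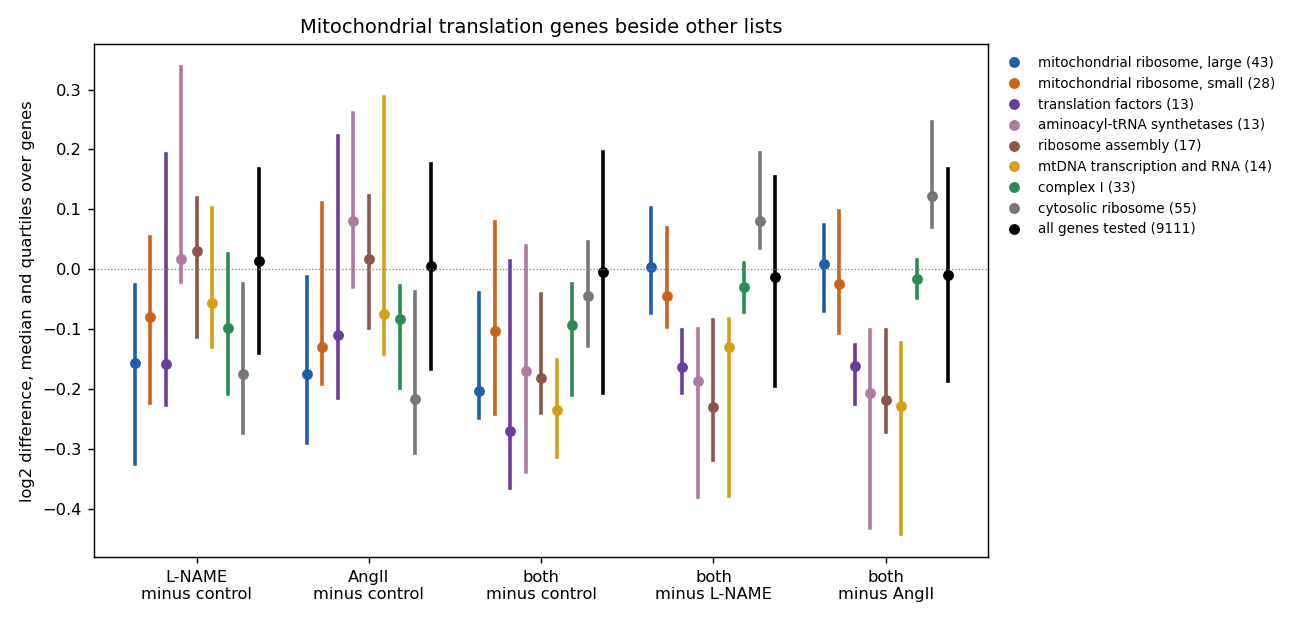
Median (points) and quartiles (lines) of log2 differences over the tested genes of each list in 5 comparisons, with the number of genes in brackets; "both" is the combination. The 2 subunits of the mitochondrial ribosome lie below 0 in all 3 comparisons with control and near 0 between the combination and the single treatments, where the other mitochondrial translation lists lie between -0.13 and -0.23. Complex I genes show the same pattern, at -0.10 (L-NAME), -0.08 (AngII) and -0.09 (both) against control. Between the combination and L-NAME or AngII they are at -0.03 and -0.02.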

How the data were processed

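The 16 left ventricle samples (4 per group) were hybridised to Illumina arrays, from total RNA turned into biotin-labelled cRNA per the labels' protocols. The submitters' processing notes name GenomeStudio and lumi without a version. The deposited values are log2 intensities made by the authors for 25697 probes. Their sorted columns differed by at most 0.00132 between arrays, so they were quantile normalised. No source used here says whether background was subtracted or a variance-stabilising transform applied, and either would change differences of dim probes most. Left out was a second table, because none of its 64 value columns has a name that fits a label. No source used here gives slides or scans. Counting depth has no meaning for arrays, and their number limits the precision.

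Symbols came from the platform annotation and changed for 0 of the 76 genes through the RefSeq gene table. Background was the 95th percentile (7.12 on the log2 scale) of 1340 probes for chemosensory receptor genes. The highest probe of each gene was tested if above it on at least 4 arrays (9111 genes). limma 3.58.1 in R 4.3.3 fitted 4 group means to all 16 arrays, with 12 residual and 3.15 prior degrees of freedom. There were 6 comparisons: combination, L-NAME or AngII against control, combination against L-NAME or AngII, and the interaction of both agents. Benjamini-Hochberg adjustment ran over all genes, with a threshold of 0.05. The fit was tested on simulated data. Promoters came from RefSeq (GRCm38.p6).

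The genes and gene lists were chosen with earlier results of these data known. Named genes were those called in any comparison, the 12 lowest and 8 highest differences between combination and control, the 4 lowest and 4 highest of each other comparison and of the mean levels, and those whose further probes differed in sign, plus a few named for their role. Samples with the same number were checked for pairing: their deviations from group means correlated in all 24 pairs (r from 0.114 to 0.451, median 0.281). Different numbers within 1 and 2 or within 3 and 4 had a median of 0.234, and across these sets -0.258. Results of a fit blocked on that number stand beside those whose call or count it changed. Alternatives were that block, a term for both sets, 2 other filters, every probe tested alone, a trended robust variance, array weights, only the arrays compared, cyclic loess, median centring, atrial genes as a covariate, and arrays left out.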

Additional observations from a re-analysis of the deposited data

Results flagged for a closer look

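In 7 of 168 sets of 4 arrays (a gene in a group), 1 array lay far from the other 3, by a gap that exceeded Dixon's critical share of the set's range. Chance flags about 1 set in 20, so this is no more than chance gives. With L-NAME, array 2 was the highest for Mrpl35 (9.15, the nearest 8.54), for Mrpl42 (14.12, the nearest 14.01) and for the dim Mrpl32 (6.04, the nearest 5.89, not tested). Array 4 of that group was the highest for Mrps25 (9.42, the nearest 9.34). With AngII, array 2 was the highest for Mrpl36 (12.43, the nearest 12.18), array 1 the highest for Mrps15 (10.96, the nearest 10.73) and array 4 the lowest for Mrpl54 (12.19, the nearest 12.34).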

How the results depend on the processing

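The median difference of the 71 genes between combination and control ran from -0.16 to -0.13 over all alternatives, the leave-one-out fits included, and every median against control kept its sign. Several settings could not move the median between combination and control. In equal groups the block, the term for both sets and the trended robust variance leave the differences as they are. The same holds for testing every probe alone, using only the arrays compared, and leaving out an L-NAME or AngII array. The count of called genes in the combination (6) was 11 with a trended robust variance (10 lower and 1 higher, with 7.87% of all genes called) and 15 with array weights (12.2% of all genes). It was 9 with background exceeded on all 16 arrays (8 lower and 1 higher, with 9.92% of all genes called). With the replicate block it was 7 (8.64% of all genes), and with a term for both sets of numbers 6 (9.16% of all genes). With only the arrays of both groups it was 2 (0.900% of all genes), and with 1 array left out 3 to 7. It was 3, all among the 6, when array 1, 2 or 4 of the controls or array 1 or 3 of the combination was left out (2.72% of all genes without control array 1 and 3.39% without control array 2). With AngII (0 called) it was, each with the share of all genes called, 3 with the replicate block (0.615%), 2 with a term for both sets of numbers (0.538%), 1 with no filter (0.0422%), 2 with background exceeded on all 16 arrays (0.417%), 6 with the trended robust variance (1.51%), 7 with array weights (1.95%), 1 with median centring (0.187%) and 0 to 5 with 1 array left out, the 1 without AngII array 4 (0.0220%) and the 5 without combination array 4 (1.53%). Array weights also gave 2 called genes with L-NAME (0.450%), 2 between combination and AngII (3.23%) and 1 between combination and L-NAME (5.25%), the last with a median of -0.053. The trended robust variance gave 1 in the interaction (Mrpl54, with 1.71% of all genes called). The median interaction (0.14) was 0.076 with array weights, 0.080 without control array 4 and combination array 4 together, and 0.087 to 0.175 with 1 array left out. In the combination, calls were gained for Mrpl18 in 5 settings (adjusted p from 0.00476 to 0.0447), Mrps18b in 4, Mrps24 in 3, Mrpl36 in 2, Mrpl28 in 1 (trended robust variance) and Mrpl16, Mrpl30, Mrpl43, Mrps11, Mrps26 and Mrps30 in 1 each (array weights). Of 1016 other values of named genes, 16, of 9 genes and none of them called, changed sign. Apart from the values given here, the replicate block changed no call. The cause of these changes was not tested. Brightness near background limits Mrps14 and Mrpl15.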
